A study of Mus musculus with 24 samples.

Results

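The miR-34 and miR-449 families were examined in a NanoString nCounter miRNA profile of JygMC(A) mouse mammary tumors, with normal tissues and cultured cells for comparison. Members were the probes whose names start with mmu-miR-34a, mmu-miR-34b, mmu-miR-34c or mmu-miR-449, which gave 7 of the 618 probes of the panel (566 of them for mouse miRNAs). These were mmu-miR-34a, mmu-miR-34b-5p, mmu-miR-34b-3p, mmu-miR-34c, mmu-miR-449a, mmu-miR-449b and mmu-miR-449c, written without the prefix from here on. The 583 mouse and viral miRNA probes above 0 in some sample were tested, the 7 members among them, miR-449b through 1 normal lung lane alone.

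miR-34a is a direct transcriptional target of the tumor suppressor p53 and lowers the levels of cell cycle and survival proteins. The genes of miR-34b and miR-34c lie side by side on another chromosome, are also induced by p53, and are most abundant in multiciliated cells of the airway, oviduct and brain ventricles and in the testis. The miR-449 genes lie in an intron of Cdc20b, are switched on during the formation of multiple cilia, and share their seed with miR-34, so both families can bind many of the same mRNAs.

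JygMC(A) is a cell line from a spontaneous mammary carcinoma of a Chinese wild mouse, and here it carried GFP and luciferase (JygMC(A) GFP/Luc). The cells were grown as a monolayer (n = 2) or as 3D-spheres of the third generation on ultra-low adherent plates (n = 2), and in BalbC nude mice, which lack T cells, they formed mammary primary tumors and lung metastases. Laser capture gave adenocarcinoma areas (carcinoma, n = 5) and EMT-like areas (n = 7) of primary tumors (PT, both kinds together), lung metastases (n = 4), normal mammary gland (NMG, n = 2) and normal lung parenchyma (n = 2), all from BalbC nude mice. Several carcinoma, EMT-like and metastasis samples came from the same animals, both normal tissues were taken from the same 2 animals, and the labels of replicate 1 of carcinoma, EMT-like and metastasis each name 3 animals. No tumor sample carries the name of an animal that gave normal tissue, and the line came from a wild mouse, not from BalbC nude mice. Differences of tumor from normal tissue therefore cannot be told apart from those of animal or strain. All tumors and cultures derive from 1 cell line, so the samples are replicates of that line and not of independent tumors.

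The values are counts of probe barcodes less the mean of the 6 negative control probes of the lane, so they can be negative. The sum over mouse miRNAs was 24418 and 44953 in the monolayers, 31163 and 36679 in the spheres, 113594 to 162045 over the carcinoma samples, 110552 to 183539 over EMT-like areas and 61497 to 114004 over metastases. It was 525225 and 559660 in NMG, and 589588 and 2334955 in normal lung. Because depth differed this much, each lane was scaled by the trimmed mean of M-values (TMM), and the scaled values, floored at 0, are called normalized values. The multiplier was 0.124 and 0.414 in normal lung, 0.380 and 0.399 in NMG, 0.811 to 1.43 in PT, 1.13 to 1.86 in metastases and 1.81 to 2.66 in the cultures, so a count in a culture weighs far more than a count in normal tissue. A probe was above the detection limit in a lane when it exceeded the negative controls' mean by more than 2 of their SDs, a limit of 4 to 21.4 counts. Differences were tested on log2(normalized value + 1) with limma in 1 fit of all 24 samples with the animal as a random block, and a probe was called at a Benjamini-Hochberg adjusted p under 0.05 over 583 probes. Such log2 differences understate the change of low probes.

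The mature sequences are shown because the families are defined by them. RefSeq (GRCm38.p6) gave 5 of the 7 looked up; miR-34c-5p and miR-449b-5p are named only. The panel names of miR-34a, miR-34c and the miR-449 probes give no arm, and the 5p arm is shown. Capitals mark the seed, bases 2 to 8.
miR-34a-5p: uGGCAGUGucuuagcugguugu
miR-34b-5p: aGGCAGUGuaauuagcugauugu
miR-449a-5p: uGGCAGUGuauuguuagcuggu
miR-449c-5p: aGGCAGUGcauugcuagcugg
miR-34b-3p: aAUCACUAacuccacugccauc
The first 4 share the seed GGCAGUG, which no other of the 1679 mature entries of the table carries. The arm miR-34b-3p has another seed, AUCACUA, shared in the table with miR-34c-3p. Counted from the seed onward, miR-449a-5p and miR-449c-5p were identical at 18 of 20 positions, and miR-34a-5p and miR-449a-5p at 14 of 21. The identity was 11 of 21 between miR-34a-5p and miR-34b-5p and 10 of 21 between miR-34b-5p and miR-449a-5p. Cross-hybridization between members was not tested. In GRCm38.p6, miR-34a-5p lies at chr4:150068473-150068494 on the plus strand and miR-34b-5p at chr9:51103610-51103632 on the minus strand, where the Mir34b and Mir34c hairpins are 451 bases apart. On chromosome 13, miR-449a-5p lies at chr13:113037549-113037570 and miR-449c-5p at chr13:113036008-113036028, both on the plus strand, with 1442 bases between their hairpins and all 3 Mir449 genes inside the span of Cdc20b.

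**Figure D1:**
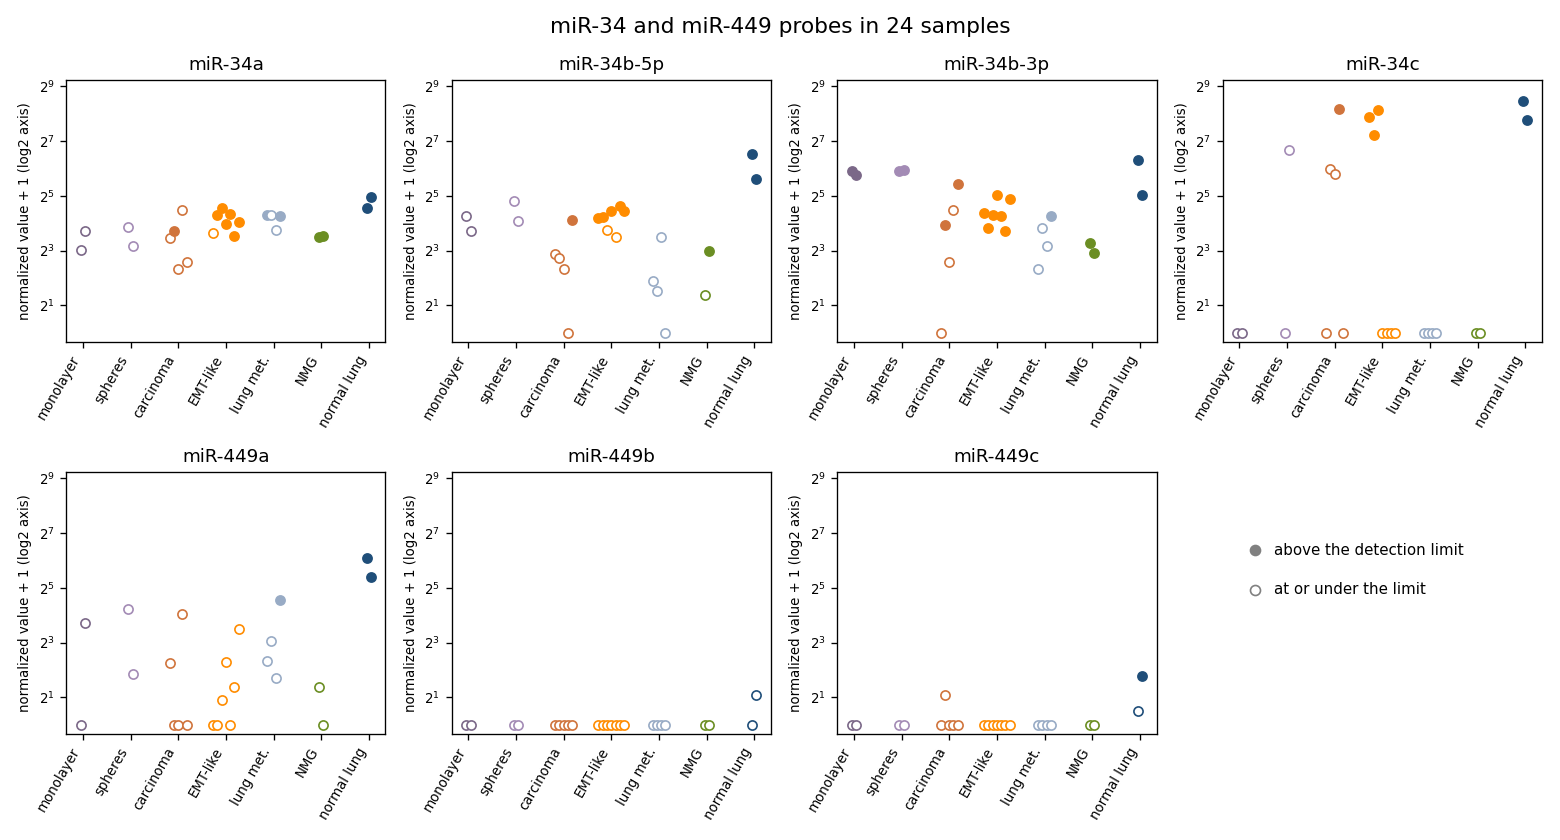
Normalized value + 1 (log2 axis) of each miR-34 and miR-449 probe in the 24 samples, by group; each point is 1 sample, filled where the probe was above the detection limit of its lane and open where it was not. Filled points outside normal lung number 11 for miR-34a, 7 for miR-34b-5p, 16 for miR-34b-3p, 4 for miR-34c and 1 for miR-449a, out of 22 lanes.

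miR-34a, the member with the best described role downstream of p53, was low outside normal lung. Its counts were 4 and 6 in the monolayers, 7 and 3 in the spheres, and 8, 11, 4, 15 and 4 in carcinoma. In EMT-like areas they ran from 10 to 25 with a median of 18. The probe was under the limit in all 4 cultures, and above it in 1 of 5 carcinoma and 6 of 7 EMT-like samples. Metastases had counts of 14, 10, 11 and 13, with 2 of 4 above the limit. NMG had 26 and 28, and normal lung 55 and 241. After scaling, normal lung (22.8 and 29.8) lay just above the highest value elsewhere (22.4, EMT-like), and NMG (10.4 and 10.7) lay within the range of carcinoma (3.99 to 21.4). By mean log2 level the order was normal lung (4.76), metastasis (4.15), EMT-like areas (4.06), NMG (3.52), spheres (3.52), monolayer (3.38) and carcinoma (3.32), and the ranges of all neighbours in it below normal lung overlapped.

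miR-34b-5p, which carries the family seed, was high in normal lung, with counts of 220 and 389. Counts were 10 and 6 in the monolayers, 14 and 6 in the spheres, 5, 5, 4, -1 and 13 in carcinoma, and 10 to 29 with a median of 19 in EMT-like areas. Metastases had 2, 1, 9 and 0, and NMG 4 and 18. The normalized values of normal lung (91.0 and 48.2) did not overlap with any other group, where the highest was 27.4 in a sphere culture that was under its limit. All 4 metastases and all 4 cultures were under the limit, against 5 of 7 EMT-like, 1 of 5 carcinoma and 1 of 2 NMG samples above it. The mean log2 level was 6.07 in normal lung, then 4.45 in spheres, 4.17 in EMT-like areas, 3.99 in the monolayer, 2.40 in carcinoma, 2.17 in NMG and 1.72 in metastasis, with overlap between all neighbours below normal lung. Among the 583 probes tested, 215 (36.9%) had their highest mean log2 level in normal lung. How many of all probes had no overlap between groups was not counted, here or below. No such separation of groups is therefore read as particular to a member.

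miR-34b-3p, the opposite arm of the same hairpin, was above the limit in 18 of 24 lanes, more than any other member. Its counts were 33 and 26 in the monolayers, 30 and 23 in the spheres, and -1, 13, 5, 15 and 33 in carcinoma. EMT-like areas had 14 to 33 with a median of 18. Cultures and PT therefore overlapped in counts. Metastases had 3, 7, 7 and 13, NMG 22 and 17, and normal lung 190 and 255. After scaling, the spheres (58.7 and 61.1) and monolayers (59.6 and 52.9) lay within the range of normal lung (78.6 and 31.6). The multipliers were 1.81 to 2.66 in the cultures and 0.124 and 0.414 in normal lung. The order by mean log2 level was spheres (5.93), monolayer (5.84), normal lung (5.67), EMT-like areas (4.34), metastasis (3.39), carcinoma (3.29) and NMG (3.09), and the only neighbours without overlap were normal lung and EMT-like areas.

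miR-34c, the partner of miR-34b in its cluster, needs its own account because its probe name gives a share of 0.124 of positive control A that the probe also picks up, a spiked-in RNA. That control lay between 7950 and 11435 counts, so the stated share amounts to 986 to 1418 counts per lane. The deposited values outside normal lung were 828 to 1545, a ratio to positive control A of 0.0938 to 0.161 with a median of 0.116. In normal lung they were 1896 and 2888, a ratio of 0.227 and 0.316. Only the normal lung lanes stand clear of the line of the stated share.

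**Figure D2:**
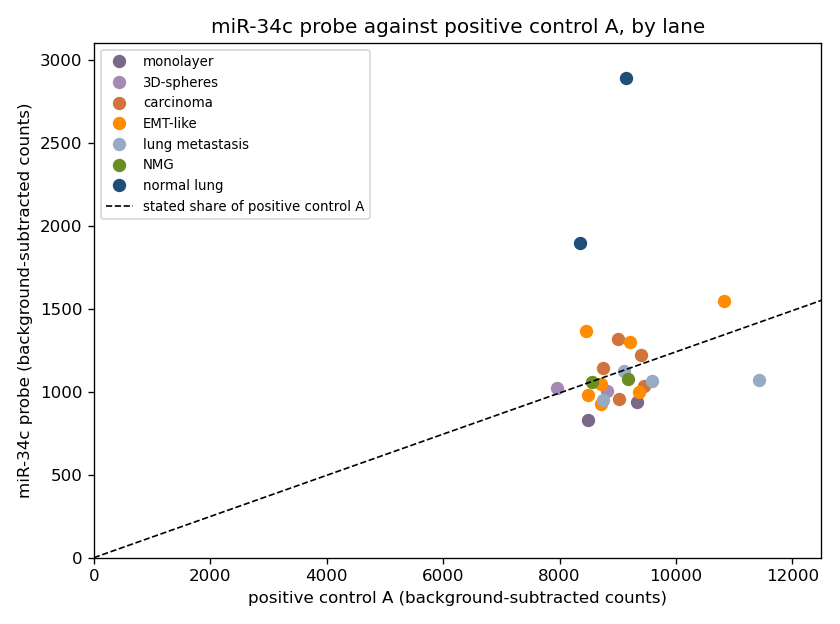
Deposited miR-34c probe value against positive control A (both in background-subtracted counts) in the 24 lanes, coloured by group; the dashed line is the stated share of 0.124. The 22 lanes outside normal lung lie at 828 to 1545 counts around the line, and the normal lung lanes at 1896 and 2888 above it.

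After subtraction of the share, miR-34c was 860 and 1755 counts in normal lung. It was -220 and -224 in the monolayers, -92.4 and 38.2 in the spheres, -165, 56.4, 55.3, 199.5 and -134 in carcinoma, and -162 to 315 with a median of -32.9 in EMT-like areas. Metastases had -2.28, -345, -137 and -124, and NMG -3.44 and -60.6. Outside normal lung 15 of 22 values were negative and their SD was 161 counts, so values of this size are not read as levels. With the lowest ratio, 0.0938, as the share none would be negative; which share holds was not tested. From counting error alone the limit would be 61.9 to 110 counts, above which lay 1 carcinoma sample, 3 EMT-like samples and both normal lungs. Because the spread was larger, the size of the most negative value, 345 counts, was also used as a limit, a choice made after seeing the data, and both normal lungs alone exceeded it. The normalized values were 356 and 217 in normal lung and at most 285 elsewhere (carcinoma replicate 4), so the groups overlap after scaling although the counts do not. By mean log2 level the order was normal lung (8.13), carcinoma (3.99), spheres (3.34) and EMT-like areas (3.32), with the monolayer, metastasis and NMG at 0, and all neighbours overlapped.

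Of the miR-449 members, which mark cells that build multiple cilia, miR-449a was detected in normal lung, with counts of 161 and 334. It was -1 and 6 in the monolayers, 9 and 1 in the spheres, 3, -5, -4, 11 and -8 in carcinoma, and -6 to 12 with a median of 1 in EMT-like areas. Metastases had 3, 4, 2 and 16, and NMG 4 and -2. Metastasis replicate 4, at 16 counts, was the only lane outside normal lung above the limit. Normalized values were 66.6 and 41.4 in normal lung and at most 22.3 elsewhere, with no overlap. The mean log2 level was 5.74 in normal lung, 3.04 in spheres, 2.92 in metastasis, 1.86 in the monolayer, 1.26 in carcinoma, 1.16 for EMT-like areas and 0.69 in NMG, and all neighbours below normal lung overlapped. miR-449b was under the limit in every lane, with -2 and 9 counts in normal lung and negative values in all 22 others. miR-449c had 1 and 20 counts in normal lung, above the limit in 1 of 2 lanes, and at most 1 count elsewhere.

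How far a low value can be read depends on the lane. The lowest normalized level of normal lung would have exceeded the limit in every lane of each group for miR-34b-5p and for miR-449a. For miR-34b-3p it would have done so in 0 of 2 monolayer, 1 of 2 sphere and 3 of 4 metastasis lanes, and in all lanes of the other groups. For miR-34a it would have done so in none of the cultures, 3 of 5 carcinoma and 3 of 4 metastasis lanes, so a level of miR-34a like that of normal lung was not detectable in some of them. For miR-34c, 345 counts correspond to 390 to 641 on the normalized scale in metastases, above the level of normal lung itself.

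Metastases were set against normal lung, taken from other animals, to show how tumor tissue differs from normal tissue of the same organ. With limma, 44.8% of the 583 probes were called (36.4% lower in metastasis). miR-449b was tested only because of 9 counts in 1 normal lung lane, under its limit, so its call (adjusted p = 0.0128) is bound to that lane and nothing is read from it. Of the other 6 members 3 were called, all lower in metastasis, where 41.2% of the 537 probes above 0 in more than 1 group were called. Of these 3, miR-449c was above 0 outside normal lung only through 1 count in carcinoma replicate 2, under its limit. Nothing is read from its call, and the count then rests on miR-34b-5p and miR-34c. miR-34b-5p fell in metastasis, with normalized values of 3.68 ± 4.47 (SD, n = 4) against 69.6 ± 30.3 (SD, n = 2) and a log2 difference of -4.35 (standard error 0.89, adjusted p = 0.00055). Since all 4 metastases were under the limit, normal lung was at least 4.59-fold higher. All 4 metastases lay below both normal lungs. The other calls were miR-34c (adjusted p = 0.0147) and miR-449c (adjusted p = 0.00188). No fold is given for these. The call of miR-34c was lost with shares 10% lower (adjusted p = 0.0603) and with the lowest ratio as the share (0.168). It was also lost without either normal lung, which left 1 sample of that tissue. For miR-34c the difference was at least 2.83-fold against the counting limit but not above 1-fold against 345 counts, and miR-449c stayed under or near the limit in both tissues. miR-449a had 9.02 ± 9.14 (SD, n = 4) against 54.0 ± 17.9 (SD, n = 2), a log2 difference of -2.82 (standard error 1.29, adjusted p = 0.0814), and missed the threshold although all 4 metastases lay below both normal lungs. miR-34b-3p (log2 difference -2.28, standard error 0.94, adjusted p = 0.0531) and miR-34a (-0.61, standard error 0.53, adjusted p = 0.380) were not called either, with the same order of samples. miR-34a turned to 0.36 by miRNA total. Over 22 alternatives miR-34b-3p was called in 9, miR-449a in 7 and miR-34a in 3. The median log2 difference was -2.55 over the 6 members and -0.58 over the 537 probes.

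In bulk samples such as these, fewer cells of a type and less RNA per cell cannot be told apart. Normal lung also differed from metastasis in markers of other cell types. Summed normalized levels of the endothelial list (2 of 2 on the panel, miR-126-3p most abundant) were 45279 and 48943 in normal lung and 720 to 3196 in metastases. The erythroid list (3 of 3, miR-451 most abundant) had 32818 and 39072 against 357 to 469. The leukocyte list (4 of 4, miR-142-3p most abundant in normal lung) had 3118 and 4266 against 419 to 864, the mesenchymal and smooth muscle list (5 of 5, miR-145 most abundant) 10152 and 12301 against 807 to 2137, and the muscle list (4 of 4, miR-1 most abundant in normal lung) 391 and 1203 against 18.6 to 40.5. The epithelial list (7 of 7, miR-200b most abundant in normal lung) had 3386 and 4231 in normal lung and 2406 to 4794 in metastases, which overlapped. No marker was at 0 in normal lung, and miR-1 was at 0 in 3 of 4 metastases; the part of these cell types in the result was not tested. The lists hold no marker of ciliated cells, so the amount of airway in the captured lung was not measured here. Without normal lung replicate 2, miR-34b-5p was the 1 member called in this comparison and 123 probes were called in all, against 261. The members' count was 7 unscaled, by mRNA controls and by positive controls, miR-449b included. Over all probes 49 were called higher and 212 lower, against 8 and 378 unscaled, 3 and 385 by mRNA controls, 6 and 380 by positive controls, 69 and 161 by the top 100 miRNAs and 91 and 146 by miRNA total.

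Normal lung was compared with NMG as normal tissues of the organs that host metastasis and primary tumor. With limma, 8.58% of the 583 probes were called (6.52% higher in normal lung). Of the 6 members without miR-449b 3 were called, all higher in normal lung, where 7.64% of the 537 probes were called. Here too nothing is read from the call of miR-449c, above 0 outside normal lung only through 1 count in carcinoma replicate 2. The count then rests on miR-34b-5p and miR-449a. miR-34b-5p had 69.6 ± 30.3 against 4.22 ± 3.71 (SD, n = 2 each), a log2 difference of 3.90 (standard error 1.03, adjusted p = 0.0178). miR-449a had 54.0 ± 17.9 against 0.798 ± 1.13 (SD, n = 2 each), with a log2 difference of 5.05 (standard error 1.49, adjusted p = 0.0346), and was at least 11.4-fold higher because both NMG lanes were under the limit. Both normal lungs lay above both NMG samples for each. miR-449c was called too (adjusted p = 0.0214), but at 1 and 20 counts no fold is given. miR-34c missed the threshold (adjusted p = 0.0826), with a bound of at least 9.96-fold from the counting limit and at least 2.06-fold from 345 counts. miR-34a (log2 difference 1.23, standard error 0.61, adjusted p = 0.232) and miR-34b-3p (2.58, standard error 1.08, adjusted p = 0.139) were not called, and miR-449b (adjusted p = 0.0744) was under the limit in all 4 lanes. The median log2 difference was 3.24 over the 6 members and -0.13 over the 537 probes. Unscaled, by mRNA controls and by positive controls all 6 were called.

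In the marker lists NMG had 11241 and 17084 for endothelium, 7858 and 8718 for erythroid cells, 2561 and 5433 for leukocytes, 14679 and 16635 for mesenchyme and smooth muscle, 45.6 and 994 for muscle, and 2831 and 4161 for epithelium. None was at 0 in NMG, the endothelial and erythroid sums were higher in both normal lungs, and their part in the result was not tested. These calls are fragile. For miR-34b-5p and miR-449a they were lost without NMG replicate 1 (log2 differences 3.10 and 5.74) and without normal lung replicate 1 (3.45 and 4.71), each leaving 1 sample in a group. With those groups alone in the fit no member was called (adjusted p = 0.210 for miR-34b-5p and 0.145 for miR-449a). That fit called 0 of the 583 probes, with log2 differences of 3.90 and 5.05 for these members, so it decides nothing about them. miR-34b-5p was the 1 member called without normal lung replicate 2, without NMG replicate 2, by the top 100 miRNAs and by miRNA total. The call of miR-449a was lost by the top 100 miRNAs (adjusted p = 0.0876), by miRNA total (0.0797) and without any 1 of the 4 samples (0.0919 to 0.173), in a range of 3.36e-06 to 0.173 over the alternatives, and that of miR-34b-5p ranged from 0.000112 to 0.210. The number of probes called went from 50 to 103 without normal lung replicate 1 and to 29 without NMG replicate 1. Over all probes 38 were called higher and 12 lower in normal lung, against 100 and 11 unscaled, 186 and 6 by mRNA controls, 101 and 10 by positive controls and 32 and 23 by miRNA total.

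Carcinoma was compared with EMT-like areas to find miRNAs that differ between epithelial and mesenchymal growth in the same tumors. With limma no member was called, where 0.172% of probes were, and at an unadjusted p under 0.05 there was 1 member among 85 probes. This was miR-34b-5p, with carcinoma at 6.45 ± 6.08 (SD, n = 5) and EMT-like areas at 17.5 ± 4.74 (SD, n = 7). Its log2 difference was -1.76 (standard error 0.60, adjusted p = 0.140). Its ranges overlapped, since carcinoma replicate 5 at 16.4 lay above EMT-like samples. Carcinoma and EMT-like areas pair by animal in 4 cases, 1 of them the samples that name 3 animals, and miR-34b-5p was lower in carcinoma in all 4 pairs (6.26 against 17.3, 5.56 against 17.8, 0 against 12.5 and 16.4 against 20.7). In the pair of carcinoma replicate 4 and EMT-like replicate 3 the markers run against the labels, with an epithelial sum of 1063 in carcinoma and 1279 in the EMT-like area, and a mesenchymal sum of 3381 and 2471. A lower value in carcinoma in all 4 pairs was found for 36 of the 583 probes (6.17%), miR-34a among them, and 12 were higher in all 4 pairs; this is a description with no test. miR-34a had 10.5 ± 6.97 (SD, n = 5) against 16.1 ± 4.29 (SD, n = 7), a log2 difference of -0.74 (95% interval -1.48 to 0.0012, adjusted p = 0.341), and in the pairs 10.01 against 11.6, 12.2 against 18.7, 21.4 against 22.4 and 5.05 against 14.8. miR-34b-3p had a log2 difference of -1.05 (95% interval -2.37 to 0.27, adjusted p = 0.457) and was lower in carcinoma in 1 of 4 pairs, or in 3 of 4 by counts before scaling. For both miR-34a and miR-34b-3p the groups overlapped. miR-34c (adjusted p = 0.989), miR-449a (1), miR-449b (1) and miR-449c (0.623) were not called, and no carcinoma or EMT-like sample was above the limit for the miR-449 members. Over all probes 0 were called higher and 1 lower in carcinoma, against 0 and 7 unscaled and by positive controls, 0 and 2 by the top 100 miRNAs and 0 and 1 by the other scalings. The 1 called became 17 or 13 on leaving out EMT-like replicate 2 or 3. The number was 9, 4 and 2 when carcinoma replicate 4, 5 or 3 was left out, and 2 when EMT-like replicate 7 was. The epithelial list summed to 1063 to 6073 in carcinoma and 60.8 to 1642 in EMT-like areas, and the mesenchymal list to 1701 to 3381 and 2247 to 3897. The sums of the other lists were 1004 to 1982 and 1588 to 3002 for endothelium, 95.6 to 208 and 94.9 to 305 for erythroid cells, 240.2 to 753 and 299 to 493 for leukocytes, and 10.98 to 43.4 and 27.6 to 77.0 for muscle.

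Tumor areas were compared with NMG as normal tissue of the organ in which they grew, from other animals and another strain than the line. In carcinoma no member was called with limma, where 29.8% of probes were, and none had an unadjusted p under 0.05. miR-34a had 10.5 ± 6.97 (SD, n = 5) against 10.5 ± 0.198 (SD, n = 2), a log2 difference of -0.21 (95% interval -1.26 to 0.85, adjusted p = 0.869). Its counts were 4 to 15 in carcinoma and 26 and 28 in NMG, so the order of the groups depends on scaling: the log2 difference was -1.73 with no scaling (adjusted p = 0.0182) and -1.79 by positive controls (0.0175), in a range of 0.0175 to 1 over the alternatives, but 0.10 by the top 100 miRNAs and 0.17 with scaling by the miRNA total. miR-34b-3p had a log2 difference of 0.19 (95% interval -1.69 to 2.08, adjusted p = 0.997), which turned below 0 in 7 of 23 alternatives, to -1.25 unscaled. miR-34b-5p (log2 difference 0.23, adjusted p = 0.969), miR-449a (adjusted p = 0.832), miR-449b (1) and miR-449c (0.637) were not called, the miR-449 members with all samples of both groups under the limit. In EMT-like areas no member was called with limma either, where 23.8% of probes were, and 1 member, miR-34b-5p, passed 0.05 unadjusted. It was at 17.5 ± 4.74 (SD, n = 7) against 4.22 ± 3.71 (SD, n = 2), a log2 difference of 1.99 (standard error 0.83, adjusted p = 0.0850). All 7 EMT-like samples lay above both NMG samples after scaling but not in counts. It was called with scaling by the top 100 miRNAs by abundance (adjusted p = 0.0372), by miRNA total (0.0446), with a pseudocount of 10 (0.0326) and with those groups alone in the fit (0.0118), in a range of 0.0118 to 0.583 over the alternatives. miR-34a had a log2 difference of 0.53 (standard error 0.49, adjusted p = 0.513), which turned to -0.68 unscaled, -0.54 by mRNA controls, -0.74 by positive controls and -0.92 with 2 SD of the negative controls also subtracted. miR-34b-3p had a log2 difference of 1.25 (standard error 0.87, adjusted p = 0.343). Its 7 EMT-like values also lay above both NMG samples after scaling but not in counts, and it was called with those groups alone in the fit (adjusted p = 0.0375, in a range of 0.0375 to 1). miR-449a (adjusted p = 0.868), miR-449b (1) and miR-449c (1) were not called, with all samples under the limit. Both comparisons share the 2 NMG samples.

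Over all probes 32 were called higher and 142 lower in carcinoma than in NMG, against 5 and 289 unscaled, 5 and 176 by mRNA controls, 5 and 295 by positive controls, 39 and 93 by the top 100 miRNAs and 44 and 98 by miRNA total. For EMT-like areas the split was 28 and 111, against 10 and 201, 6 and 162, 10 and 206, 47 and 81 and 48 and 90 in the same order. Without NMG replicate 1 or 2, 96 and 106 probes were called in carcinoma, against 174. miR-34c was also read with the share of positive control A left in. Its deposited values in NMG (1058 and 1078) lay within the ranges of carcinoma (954 to 1316) and EMT-like samples (927 to 1545). After scaling the same values became 1398 ± 289 (SD, n = 5), 1134 ± 323 (SD, n = 7) and 425 ± 8.68 (SD, n = 2), and miR-34c was called higher than in NMG in carcinoma (log2 difference 1.70, adjusted p = 0.000268) and in EMT-like areas (1.37, adjusted p = 0.00145). With the share subtracted neither was called (adjusted p = 0.263 and 0.363), and both NMG values were below 0. Against normal lung, metastasis was called higher in unsubtracted miR-34c (log2 difference 1.44, adjusted p = 0.00131) and lower once the share was subtracted. In the 4 metastases, the deposited values were 948 to 1126, below the 1896 and 2888 of normal lung.

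Metastases were compared with PT to find what accompanies spread to the lung. With limma no member was called, where 3.6% of probes were, and 2 members had an unadjusted p under 0.05. These were miR-34b-5p, at 3.68 ± 4.47 (SD, n = 4) against 12.9 ± 7.64 (SD, n = 12, adjusted p = 0.192), and miR-34c (adjusted p = 0.332). All 4 metastases were under the limit for both, as were 6 of 12 PT samples for miR-34b-5p and 8 of 12 for miR-34c, and no fold is given. Without carcinoma replicate 4, miR-34b-5p was called. PT pools carcinoma (6.45 for miR-34b-5p) and EMT-like areas (17.5), so its mean depends on the share of each. Means and SDs of PT, here and in cultures against PT, are over all 12 samples, several of them from the same animals. The tests weighted the 2 kinds of area equally. Metastasis and EMT-like areas pair by animal in 4 cases, 1 of them the samples that name 3 animals, and miR-34b-5p was lower in metastasis in all 4 (2.70 against 17.3, 1.86 against 20.7, 10.2 against 23.5 and 0 against 20.7). So was miR-34b-3p (4.05 against 19.6, 13.01 against 31.5, 7.90 against 12.2 and 18.2 against 28.4), and both were lower in counts too. In these pairs 82 of the 583 probes (14.1%) were lower and 50 (8.58%) higher in metastasis in all 4, miR-34a and miR-449a among the latter, though miR-34a was lower in 3 of 4 by counts. The 2 pairs with carcinoma had miR-34b-5p at 2.70 against 6.26 and 1.86 against 16.4, and 114 of the 583 probes (19.6%) were lower in both. There miR-34b-3p was higher in 1 pair (4.05 against 0) and lower in 1 (13.01 against 41.7). Higher in both were 89 probes (15.3%), miR-34a and miR-449a among them. The pairs were read after the data were seen and are a description with no test. miR-34a had 17.0 ± 3.08 (SD, n = 4) against 13.8 ± 5.997 (SD, n = 12), a log2 difference of 0.46 (95% interval -0.27 to 1.20, adjusted p = 0.724). miR-34b-3p had a log2 difference of -0.42 (95% interval -1.73 to 0.88, adjusted p = 0.962). miR-449a (adjusted p = 0.396), above the limit in 1 metastasis and no PT sample, was not called, nor were miR-449b (1) and miR-449c (0.996), under the limit throughout. The 21 probes called became 12 without metastasis replicate 1. Over all probes 3 were called higher and 18 lower in metastasis, against 1 and 34 unscaled, 1 and 38 by positive controls and 1 and 11 by mRNA controls. The split was 4 and 15 both by the top 100 miRNAs and by miRNA total. It was 5 and 15 with TMM over the 54 mouse probes above the limit in all lanes, a scaling chosen after seeing the data.

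Spheres were compared with the monolayer because growth without attachment enriches cells with stem-like properties. With limma no member was called, where 4.63% of probes were, and none had an unadjusted p under 0.05. miR-34b-3p, the only member above the limit in the cultures, had 59.9 ± 1.74 in spheres and 56.3 ± 4.72 in the monolayer (SD, n = 2 each), a log2 difference of 0.091 (95% interval -2.16 to 2.34, adjusted p = 1), which turned below 0 in 4 of 21 alternatives, to -0.35 by the top 100 miRNAs. The others, under the limit in all 4 cultures, were not called (adjusted p = 0.847 for miR-34c and 1 for miR-34a, miR-34b-5p, miR-449a, miR-449b and miR-449c). The 27 probes called became 56 without monolayer replicate 2, 15 without 3D-spheres replicate 1 and 12 without 3D-spheres replicate 2. Over all probes 17 were called higher and 10 lower in spheres, against 7 and 1 unscaled, 9 and 0 by mRNA controls, 7 and 1 by positive controls, 15 and 35 by the top 100 miRNAs, 16 and 25 by miRNA total and 17 and 18 with TMM over the 54 probes.

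Cultures were compared with PT to set the line in vitro against its growth in the mouse. With limma 1 of 7 members was called, miR-34b-3p, higher in the cultures, where 30.4% of probes were called (8.75% higher). It had 58.1 ± 3.58 (SD, n = 4) against 18.7 ± 11.4 (SD, n = 12), a log2 difference of 2.07 (standard error 0.63, adjusted p = 0.0143). All 4 cultures lay above all 12 PT samples after scaling, whereas in counts (23 to 33 against -1 to 33) they overlapped. The call was lost with no scaling (adjusted p = 0.204), with the mRNA controls (0.0624), with the positive controls (0.162) and without 3D-spheres replicate 2 (0.0502), in a range of 1.77e-05 to 0.204 over the alternatives. Of the 33 probes for viral miRNAs tested, 3 were also called higher in cultures, at log2 differences of 1.74 to 2.31. These, named after their values were seen, were mcmv-miR-m107-1-5p (adjusted p = 0.0272), mcmv-miR-m88-1 (0.0302) and mcmv-miR-M23-1-5p (0.0384), with culture means of 39.7, 34.3 and 18.6 from 4 to 33 counts. None of the 33 was above the limit in all 4 cultures, as miR-34b-3p was. The highest count of a viral probe in a culture was 34, against 33 for miR-34b-3p. How much of its difference comes from background under a high multiplier was not tested. miR-34a had 10.3 ± 3.16 (SD, n = 4) against 13.8 ± 5.997 (SD, n = 12, adjusted p = 0.741), and since all 4 cultures were under the limit no fold is given. Its log2 difference in the fit, -0.24, turned to 1.70 and was called by the top 100 miRNAs (adjusted p = 0.000746, in a range of 0.000746 to 1). It was 0.76 by miRNA total and 0.59 with TMM over the 54 probes. With the cultures under the limit, these values of miR-34a are read neither as folds nor as a direction. miR-34b-5p (adjusted p = 0.275), miR-34c (0.477), miR-449a (0.336), miR-449b (1) and miR-449c (0.793) were not called, with all 4 cultures under the limit. The endothelial sum was 0 in all 4 cultures and 1004 to 3002 in PT, and the epithelial sum was 58.5 to 112 in cultures, where miR-141 and miR-429 were at 0 in all 4. The sums in cultures were 0 to 16.3 for erythroid cells, 106 to 143 for leukocytes, 423 to 1600 for mesenchyme and smooth muscle and 121 to 169 for muscle, and their part in the result was not tested. Over all probes 51 were called higher and 126 lower in cultures, against 4 and 150 unscaled, 7 and 119 by mRNA controls, 5 and 149 by positive controls, 210 and 62 by the top 100 miRNAs, 143 and 86 by miRNA total and 131 and 97 with TMM over the 54 probes.

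Other miRNAs of the p53 pathway were read from a list of 11 miRNAs that p53 induces or helps to process, 9 of them on the panel, and a list of 6 that bind the p53 mRNA and lower p53, all on the panel. Of the 9, 5 were called lower in carcinoma against NMG, where 24.4% of all probes were (median log2 difference -1.57, against -0.64 over all probes), and none was called higher. Without NMG replicate 1 the 5 became 2, and without NMG replicate 2 they became 1. miR-145, which is abundant in smooth muscle and stroma, had 938 ± 277 (SD, n = 5) against 4961 ± 572 (SD, n = 2), a log2 difference of -2.44 (standard error 0.37, adjusted p = 3.17e-05). miR-143, from the same cluster, had a log2 difference of -3.91 (standard error 0.98, adjusted p = 0.00474), and the others, named after their values were seen, were miR-16, miR-192 and miR-194. Of these, miR-192 was under the limit in all 5 carcinoma samples. Its NMG mean of 9.69 lay below their lowest normalized limit, 10.4, so no fall can be read from its call. In EMT-like areas 6 of 9 fell, where 19% of all probes did (median -2.27, against -0.23), among them miR-145 (log2 difference -2.27, adjusted p = 4.72e-05) and miR-143 (-3.74, adjusted p = 0.00474). The 6 became 3 without NMG replicate 1 and 1 without NMG replicate 2. Both miR-143 and miR-145 are also on the mesenchymal list, at 14679 and 16635 in NMG, 1701 to 3381 in carcinoma and 2247 to 3897 in EMT-like areas. The endothelial sum went from 11241 and 17084 in NMG to 1004 to 1982 and 1588 to 3002, the erythroid sum from 7858 and 8718 to 95.6 to 208 and 94.9 to 305, and the leukocyte sum from 2561 and 5433 to 240.2 to 753 and 299 to 493. The part of these cell types in the counts of the list was not tested. Against normal lung 6 of 9 were called lower in metastasis, where 36.4% of all probes were (median -2.31, against -0.58), with miR-145 at -3.07 (adjusted p = 1.37e-06) and miR-16, which restrains the cell cycle, at -2.31 (adjusted p = 0.00198). Among the 6 was miR-192, under the limit in all 4 metastases. Its normal lung mean of 16.8 lay within their normalized limits of 5.41 to 33.8, so its fall is not read. Over the other scalings 3 to 8 fell in carcinoma and 2 to 9 in EMT-like areas against NMG, and 3 to 8 in metastasis against normal lung. Over all probes the number called lower was then 93 to 295 in carcinoma, against 142 with the scaling used. It was 81 to 206 in EMT-like areas, against 111, and 146 to 385 in metastasis against normal lung, against 212. Because the number over all probes moved too, the upper counts are not read as particular to the list. No called miRNA of the list changed direction. Calls were lost by the top 100 miRNAs and by miRNA total. In carcinoma these were miR-16 (adjusted p = 0.0505 and 0.0645) and miR-192 (0.204 and 0.133). In EMT-like areas they were miR-107 (0.251 and 0.153), miR-16 (0.175 and 0.149) and miR-15a (0.130 and 0.149), and miR-143 by the top 100 miRNAs alone (0.0591). In metastasis against normal lung they were miR-192 (0.0995 and 0.0922) and miR-194 (0.0604 and 0.108), and miR-15a by miRNA total alone (0.0983).

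In cultures 6 of the 9 fell against PT, where 21.6% of all probes did (median -3.15, against -0.068), and 5 to 7 did over the other scalings. Over all probes 62 to 150 were then called lower in cultures, against 126 with the scaling used. miR-16 had 341 ± 502 (SD, n = 4) against 2273 ± 416 (SD, n = 12), a log2 difference of -3.72 (standard error 0.37, adjusted p = 4.01e-08), and miR-107 (adjusted p = 3.72e-07) was under the limit in all 4 cultures. The other 4, named after their values were seen, were miR-15a, which lost its call by the top 100 miRNAs (adjusted p = 0.0643), miR-143, miR-141 and miR-200c. miR-141 and miR-200c were under the limit in all 4 cultures, and miR-143 was above it in 1. In PT, miR-141 was above the limit in 8 of 12 samples and miR-200c in 11. The EMT-like mean of miR-141, 20.4, lay below the cultures' normalized limits of 29.4 to 38.6, so no fall against those areas is read. miR-141 and miR-200c are on the epithelial list, at 58.5 to 112 in cultures and 60.8 to 6073 in PT, and miR-143 on the mesenchymal list, at 423 to 1600 and 1701 to 3897, and the part of these cell types in the count was not tested. miR-141 was also among the 6 in EMT-like areas against NMG. In spheres against the monolayer 1 of 9 was called lower, where 1.72% of all probes were (median -1.72, against 0). This was miR-107 (adjusted p = 0.0228), under the limit in all 4 lanes and with no call unscaled, by mRNA controls or by positive controls. The count was 0 without monolayer replicate 1 or 3D-spheres replicate 1, and 5 without monolayer replicate 2. None of the 9 was called with limma between carcinoma and EMT-like areas (median -0.10, against -0.21), in metastasis against PT (-0.049, against -0.0067) or in normal lung against NMG (0.48, against -0.022). At an unadjusted p under 0.05 there were 3, 2 and 0 of them. With the mRNA controls 3 were called higher in normal lung against NMG, where 31.9% of all probes were. Between carcinoma and EMT-like areas 2 were called higher without carcinoma replicate 4, and 1 without EMT-like replicate 2 or 3.

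Of the 6 miRNAs that lower p53, 1 was called higher and 3 lower in carcinoma against NMG, where 5.49% and 24.4% of all probes were (median -0.77). Leaving out 1 sample gave 0 to 2 called lower in every case, with 1 without carcinoma replicate 2 or 4 and 0 without NMG replicate 1. None was called higher when NMG replicate 1 or NMG replicate 2 was left out, and 2 were without carcinoma replicate 4. miR-125a-5p rose, at 3334 ± 779 (SD, n = 5) against 1545 ± 328 (SD, n = 2), a log2 difference of 1.09 (standard error 0.35, adjusted p = 0.0234), but it turned to -0.53 unscaled and -0.60 by positive controls and was not called by mRNA controls (0.11, adjusted p = 0.973). miR-30d fell (-0.96, adjusted p = 0.0286), and miR-33 (adjusted p = 0.0180) was under the limit in all carcinoma samples and above it in both NMG samples. The NMG mean of miR-33, 14.4, lay within the carcinoma samples' normalized limits of 10.4 to 28.1, so no fall can be read from its call. The call of miR-504 (adjusted p = 0.0388), named after its values were seen, lies between groups that were both wholly under the limit, with carcinoma at 0 and NMG at a mean of 1.40, so no fall can be read from it. In EMT-like areas miR-125a-5p rose (1.15, adjusted p = 0.0130, but -0.13 unscaled, -0.19 by positive controls and 0.030 by mRNA controls) and miR-30d fell (-1.40, adjusted p = 0.00148), with a median of -0.78, where 4.8% of all probes rose and 19% fell. Without NMG replicate 2 none was called higher and 2 lower, and 2 were called lower without EMT-like replicate 5. In metastasis miR-125b-5p fell against PT (log2 difference -1.19, standard error 0.29, adjusted p = 0.0191, median of the list 0.076), where 3.09% of all probes fell, and it was not called without metastasis replicate 1, 2 or 3. Against normal lung 4 were called lower, where 36.4% of all probes were (median -1.20). These were miR-30d (-3.02, adjusted p = 2.35e-07), miR-125b-5p (-1.38, adjusted p = 0.0137) and, named after their values were seen, miR-33 and miR-504, the latter under the limit in all samples of both tissues (means 0 and 1.14). miR-33 was under the limit in every metastasis. Its normal lung mean of 28.1 lay within the metastases' normalized limits of 5.41 to 33.8, so its fall is not read. The 4 became 2 without normal lung replicate 1 and 1 without normal lung replicate 2. miR-30d alone was called in normal lung against NMG (2.15, adjusted p = 0.000523, median 0.17), in spheres against the monolayer (1.49, adjusted p = 0.0228, median 0.30) and in cultures against PT (-2.05, adjusted p = 1.55e-07, median -0.20). The shares of all probes called in these directions were 6.52%, 2.92% and 21.6%. In spheres miR-30d was not called without monolayer replicate 2, without 3D-spheres replicate 1 or without 3D-spheres replicate 2, and in cultures 2 of the list were called lower without monolayer replicate 1. The calls of miR-33 were lost by the top 100 miRNAs and by miRNA total in carcinoma (adjusted p = 0.134 and 0.0790) and against normal lung (0.233 and 0.256), where TMM over the 54 probes ended it too (0.0662). Those of miR-504 were lost by the same pair of scalings (0.0868 and 0.0641, then 0.0808 and 0.0946), and in carcinoma by mRNA controls (0.141). Scaling by the top 100 miRNAs ended the calls of miR-30d in carcinoma (log2 difference -0.64, adjusted p = 0.0749) and in cultures (-0.0018, adjusted p = 1), and of miR-125b-5p against normal lung (-0.77, adjusted p = 0.153). The miRNA total also ended those of miR-30d in carcinoma (-0.55, adjusted p = 0.201) and miR-125b-5p against normal lung (-0.37, adjusted p = 0.443). By mRNA controls the call of miR-125b-5p against PT was lost while its log2 difference grew to -1.34 (adjusted p = 0.0645), as was that of miR-30d in spheres at 2.12 (adjusted p = 0.206). In spheres miR-30d was not called unscaled (1.22, adjusted p = 0.365) or by positive controls (1.29, adjusted p = 0.358) either. Over the scalings 0 to 2 were called higher and 0 to 4 lower in carcinoma against NMG, 0 to 2 and 1 to 3 in EMT-like areas against NMG, 0 and 0 to 2 in metastasis against PT, 0 to 2 and 1 to 6 in metastasis against normal lung, 1 to 5 and 0 in normal lung against NMG, 0 to 1 and 0 to 1 in spheres against the monolayer, and 0 to 3 and 0 to 4 in cultures against PT. The numbers over all probes moved with scaling too, as given with each comparison, so these ranges are not read as particular to the list. None of the 6 was called with limma between carcinoma and EMT-like areas (median 0.051), and 2 had an unadjusted p under 0.05.

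The miRNAs most alike in pattern to each member above the limit in at least 6 lanes were found by the mean absolute difference between group means of log2 level over the 7 groups, each probe centred on its own mean, among 270 mouse miRNA probes. For miR-34a they were miR-652 (0.292), miR-181c (0.337), miR-467c (0.349), the shared probe of miR-181b and miR-181d (0.354) and let-7i (0.419), against a median of 1.09 over all candidates. For miR-34b-3p they were miR-206 (0.482), miR-675-5p (0.618), its partner arm miR-34b-5p (0.622), miR-542-5p (0.6998) and miR-187 (0.712), against a median of 1.52. The arm miR-34b-5p had miR-34b-3p (0.622), miR-206 (0.799), miR-876-3p (0.882), miR-133a (0.938) and miR-221 (0.946) as its nearest, against a median of 1.60. These distances rest partly on values under the limit: miR-34b-5p was under it in every lane of the monolayer, spheres and metastasis, and miR-34a in every lane of the cultures, so likeness there is not read. No nearest patterns are given for miR-34c, which was above the limit in 6 lanes by counting error but in 2 by the limit of 345 counts, with 3 groups wholly at 0 after the floor. miR-34a differed from miR-34b-3p by 1.06 and from miR-34b-5p by 1.13, near its median over all candidates.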

How the data were processed

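Laser-captured tissues and cultured cells were profiled with the NanoString nCounter mouse miRNA panel in 24 lanes of 7 groups. The deposited value of each probe is a score, a barcode count less the mean of the 6 negative controls of its lane, not scaled between lanes; the submitters' processing notes name Partek with no version. The share of positive control A stated in 4 probe names was subtracted per lane, values were floored at 0, and TMM factors were computed with own code (30% of log ratios and 5% of levels trimmed) over 566 mouse miRNA probes. With R 4.3.3, limma 3.58.1 (lmFit, eBayes with trend) and statmod 1.5.0, log2(value + 1) was fitted over 24 samples with the animal as a random block (14 animals or cultures, consensus correlation -0.00274), and Benjamini-Hochberg adjustment covered 583 probes in each of 8 comparisons. Figures and sequences used Python 3.11.15 and matplotlib 3.10.9. The procedure was tested on simulated data, but no outcome of that run is given here and no call of a member rests on it. Depth was 24418 to 2334955 counts per lane over mouse miRNAs. Samples of an animal pair through the labels' animal names.

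A fold against a group wholly under the limit is given as a bound, on the scale of value + 1, or not at all. Log2 differences printed for such groups are those of the fit and are not read as folds. All members were named in every comparison, list members called were named up to 2 per direction by adjusted p, and the 5 nearest patterns were named for members above the limit in at least 6 lanes, except miR-34c. The members and lists were chosen with earlier results of these data known. Alternatives were no scaling, scaling by the 100 most abundant miRNAs, the miRNA total, 4 mRNA controls or 6 positive controls, no subtraction of the share, shares 10% higher or lower, the lowest ratio as the miR-34c share, a minimum value of 20 required in 2 samples, the mean plus 2 SD as background, a pseudocount of 10, only the groups compared, no block, and leaving out samples. TMM over 54 probes above the limit in all lanes was added after seeing the data.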

Additional observations from a re-analysis of the deposited data

Results flagged for a closer look

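With values floored at 0, 5 of 15 groups of 4 to 10 samples had a sample far from the others. The rate of about 1 in 20 groups that chance gives does not hold for floored values, and before the floor 1 of 21 groups had such a sample, miR-34a in metastases. The other 4 had it after the floor only. miR-34c in carcinoma replicate 4 was 285 on the normalized scale (199.5 counts after subtraction), with the next carcinoma sample at 62.7. miR-34a in metastasis replicate 3 was 12.4, with the other metastases at 18.2 or more, from 11 counts under a limit of 17.1. miR-449a was 15.7 in carcinoma replicate 4 (next 3.75) and 10.3 in EMT-like replicate 7 (next 3.94), from 11 and 12 counts that were under the limits of 19.7 and 17.3. miR-449c in carcinoma replicate 2 was 1.11, from 1 count, with the others at 0.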

How the results depend on the processing

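Counts of members called moved with scaling, with the samples left out and with the groups fitted; the cause was not tested. With no scaling they were 1 in carcinoma against NMG (miR-34a), 7 in metastasis against normal lung, 7 in normal lung against NMG (miR-449b, above 0 in 1 lane only, in both) and 0 in cultures against PT, and the 6 positive controls gave the same 1, 7, 7 and 0. The 4 mRNA controls gave 7, 7 and 0 in the last 3. The 100 most abundant miRNAs gave 1 in EMT-like areas against NMG, 1 in normal lung against NMG and 4 in cultures against PT, and the miRNA total 1, 1 and 2. Without subtraction of the share, miR-34c was called against NMG in carcinoma (1) and in EMT-like areas (1). The filter gave 2 in metastasis against normal lung, where miR-449b and miR-449c were no longer tested, a pseudocount of 10 gave 1 in EMT-like areas against NMG, and only the groups compared gave 2 there and 0 in normal lung against NMG, with fewer samples and the animal as a fixed term in the latter. TMM over 54 probes gave 2 in cultures against PT. Over all probes tested the shares called in these cases were, in the same order, 50.4%, 66.2%, 19% and 26.4% with no scaling, 51.5%, 66.2%, 19% and 26.4% with the positive controls, 66.6%, 32.9% and 21.6% with the mRNA controls, 22%, 8.23% and 46.7% by the top 100, 23.7%, 9.43% and 39.3% by the total, 30.2% and 24.5% without subtraction, 47.7% with the filter, 28.1% with a pseudocount of 10, 27.8% and 0% with only the groups compared, and 39.1% with TMM over 54 probes. Leaving out each sample gave 0 to 1 in metastasis against PT, 1 to 6 against normal lung, 0 to 2 in normal lung against NMG (4 without the samples that name 3 animals), 0 to 1 in cultures against PT, and 0 in the others; a lone sample was assumed to vary like the other groups.

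Where a direction turned, the member was called neither in the fit used nor in the alternative that turned it, with the exceptions of miR-34c in metastasis against normal lung (1.44 without subtraction) and miR-34a in cultures against PT, at -0.24 but 1.70 with the 100 most abundant miRNAs (adjusted p = 0.000746, in a range of 0.000746 to 1), 0.76 with the miRNA total and 0.59 with TMM over 54 probes. Alternatives that kept the direction did call miR-34a lower in carcinoma against NMG, with no scaling (-1.73, adjusted p = 0.0182) and with the positive controls (-1.79, 0.0175). In metastasis against normal lung 3 of 22 alternatives called miR-34a lower. In carcinoma against NMG, miR-34b-3p was -1.25 with no scaling, -0.78 with the mRNA controls, -1.31 with the positive controls, -0.14 with the higher background and -0.35 to 1.01 leaving out each sample, and miR-34a was 0.10 with the 100 most abundant miRNAs, 0.17 with the miRNA total and -0.50 to 0.042 leaving out each sample. In EMT-like areas against NMG miR-34a was -0.68 with no scaling, -0.54 with the mRNA controls, -0.74 with the positive controls and -0.92 with the higher background. In spheres against the monolayer miR-34b-3p was -0.15 with no scaling, -0.35 with the 100 most abundant miRNAs, -0.19 with the miRNA total and -0.086 with the positive controls. miR-34a in metastasis against normal lung was 0.36 with the miRNA total. Of the other values of member folds, 488 kept their direction and their side of the threshold, 40 passed it and 18 fell under it. miR-34b-5p in metastasis against normal lung kept its call in all 22 alternatives (log2 difference -7.21 to -2.54, adjusted p 4.69e-07 to 0.0223), and miR-34c there lost it with shares 10% lower (adjusted p = 0.0603), with the lowest ratio as the share (0.168) and without either normal lung (0.101 and 0.115), in a range of 0.000612 to 0.168. The median of all probes moved by -2.09 to 1.41 with the mRNA controls, -1.77 to 0.67 with no scaling, -1.82 to 0.68 with the positive controls, -0.23 to 0.43 with the miRNA total, -0.15 to 0.30 with the 100 most abundant miRNAs and -0.12 to 0.075 with TMM over 54 probes. With no replicate block the counts of members were unchanged in all 8 comparisons (4 in metastasis against normal lung, 3 in normal lung against NMG, 1 in cultures against PT, 0 in the others). Cultures share only a number, with a correlation of -0.0513 over 583 probes, and with that number as a replicate block 0 members and 38 probes were called between spheres and monolayer, against 27.

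Groups of 2 samples and counts near the limit set the precision: outside normal lung no miR-34 or miR-449 member exceeded 33 counts, apart from miR-34c with its control signal. The normal lungs differed in total (589588 and 2334955), so their normalized values rest on different multipliers. Cultures had the lowest totals. Their normalized limits were 29.4 to 38.6, a range that also held metastasis replicate 2 at 33.8.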
